A study of Mus musculus with 2 samples.

Results

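The lysosomal enzymes that cut proteins into the peptides shown on MHC class II were followed in cortical thymic epithelial cells (cTECs), with and without ectopic Aire. The set was defined by name: Ctsl, Ctss, Ctsb, Ctsd, Ctsh, Ctsz, Ctsc, Prss16, Lgmn and Ifi30. Each of the 10 symbols was found on exactly 1 probe set with a single gene symbol, so the set makes up 10 of 19938 named genes, and no member appeared on a probe set with several symbols. The data were 2 Affymetrix arrays. The Tg array held cTEC RNA of Aire transgenic mice, a semi-knockin strain on the diabetes-prone NOD background in which the β5t promoter, active only in the thymic cortex, drives Aire. The non-Tg array held cTEC RNA of control NOD mice. Both labels give day 7, and they name 7 Tg and 5 non-Tg as the sources, taken here as animals pooled on each array. No source used here says how the cTECs were purified.

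Class II molecules leave the endoplasmic reticulum with the invariant chain, Cd74, in their groove, and acid proteases of the endosome must remove it before a peptide can bind. In the thymus this work is divided between epithelia: cathepsin L, encoded by Ctsl, is the enzyme of the cortex, while cathepsin S, encoded by Ctss, does it in the medulla and in dendritic cells, B cells and macrophages. The thymus-specific serine protease Prss16 is a second enzyme typical of cTECs, and mice without either cortical enzyme select an altered CD4 T cell repertoire.

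All values are log2 levels as deposited, and a ratio is Tg minus non-Tg on that scale. Each genotype has 1 array, so differences could not be set against replicates and carry no p-value. As a yardstick, the ratios of 2 probe sets of the same gene, compared in 658 genes, gave an SD of 0.302 per probe set. That SD is measured within this pair of arrays and leaves out variation between animals, pools and amplifications. A gene passed the filter when its level reached the array median (5.43 for Tg, 5.45 for non-Tg) on at least 1 array, and it was called when its ratio was at least 2-fold. Of the proteases, 9 of 10 passed; Ctsh did not.

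Aire had 7.33 on the Tg array and 6.06 on the non-Tg array (2.43-fold), and the non-Tg level was above the filter too. Aire has 1 probe set, and how much of its signal comes from the transgene or the endogenous gene was not tested. Psmb11, whose promoter drives the transgene, had 10.51 and 10.15. Cortical markers were detected on both arrays. Of 15 measured cortical markers other than the proteases, 15 passed the filter, led by the chemokine gene Ccl25 (12.64 and 12.58 in Tg and non-Tg) and the keratin gene Krt8 (12.62 and 12.57). Their ratios ran from -0.08 for Kitl to 0.57 for Ackr4, with 14 above 0, 1 below and a median of 0.10. RNA of other cells was present as well. Thymocyte markers had 13 of 14 members past the filter, with Rag1 at 10.89 and 10.96 and Cd3g at 9.94 and 10.23. Medullary epithelial markers had 11 of 15, with Krt5 at 10.73 and 10.39 and Trp63 at 9.13 and 9.25. Passing the filter was thus not particular to cortical markers, and the purity of the cTECs was not tested. Since both arrays are bulk RNA, more cells of a type and more RNA per cell cannot be told apart.

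Levels of the cysteine cathepsins spanned 7.55 log2 units on the Tg array and 7.44 on the non-Tg array, from Ctsh to Ctsl. Ctsl stood at 12.57 on the Tg array and 12.43 on the non-Tg array. It ranked 10 of 19938 genes on the Tg array and 14 on the non-Tg array, and the genes nearest to it in level over both arrays were Eef1a1, Rps6 and Rps12, which encode a translation factor and ribosomal proteins. Its ratio was 0.14 (1.10-fold), smaller than the SD of a probe set. Ctsb, a broad lysosomal endopeptidase that also trims peptides from the carboxyl end, stood at 7.48 with the transgene and 6.92 without. Its ratio of 0.55 (1.47-fold) was 1.83 times that SD.

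Ctss stood at 6.71 on the Tg array and 5.94 on the non-Tg array. The Tg value was the higher, and the ratio of 0.77 (1.70-fold) was the highest of the 10 proteases, 2.55 times the SD of a probe set. On the non-Tg array Ctss stood only 0.49 above the filter. Its rank among all genes was 4739 in Tg and 7684 in non-Tg. On both arrays its probe set thus stayed far below that of the cortical enzyme Ctsl.

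Ctsc, dipeptidyl peptidase I, which activates the serine proteases of granules, stood at 6.50 with the transgene and 6.03 without, a ratio of 0.47 (1.38-fold). Ctsz, a carboxypeptidase also called cathepsin X, was slightly lower in Tg, at 6.45 against 6.54 (ratio -0.09). Ctsh, which acts as an aminopeptidase, stood at 5.02 on the Tg array and 4.99 on the non-Tg array. It lay below the array median on both arrays, ranked 13993 and 14420 among all genes, and a difference at that level was not detectable. Of the 6 cysteine cathepsins, 5 had ratios above 0 and 1 below, with a median of 0.30, against 0 over all 19938 genes. That 0 reflects ties, with 3738 genes at exactly 0. Genes past the filter, which Ctsh is not, had a median of 0.01, with 50.6% above 0. Since Ctsb, Ctsc and Ctss are the only 3 of the 6 above 0.15, the median of 0.30 sits between 2 separate groups of values.

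**Figure D1:**
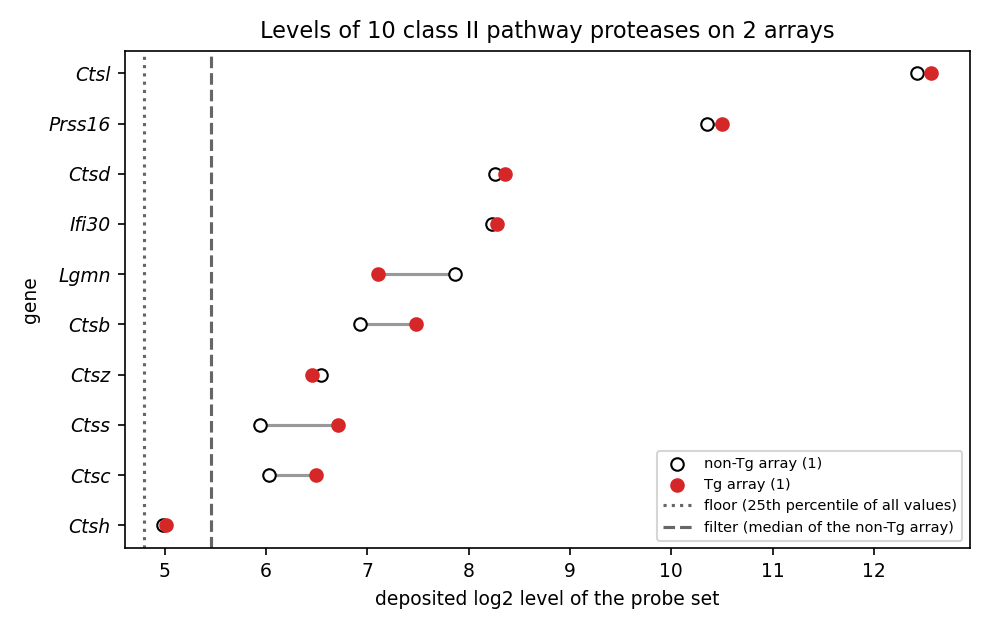
Deposited log2 level of each protease (x axis) on the Tg array (red) and the non-Tg array (open), 1 point per array, with genes ordered by mean level. Ctsl and Prss16 stand apart on the right, down to 10.36 for Prss16 in non-Tg. Ctsh lies left of the filter, and the wide gaps are those of Ctss, Lgmn, Ctsb and Ctsc.

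The enzymes outside the papain family were Ctsd, Prss16, Lgmn and Ifi30. Ctsd, the main aspartic protease of the lysosome, stood at 8.36 with the transgene and 8.26 without, a ratio of 0.10. Prss16 stood at 10.50 with the transgene and 10.36 without, a ratio of 0.15 (1.11-fold). It ranked 214 and 230 among all genes. The gene nearest to Prss16 in level was Ly75, the endocytic receptor DEC-205 that marks cTECs, at 10.49 and 10.35, followed by Psmd1 and Cd164. With 2 arrays, such nearness means a like level and a like ratio and nothing more.

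Lgmn had the lowest ratio of the 10 proteases; the only other one below 0 was Ctsz. It encodes legumain, the asparaginyl endopeptidase that makes an early cut in the invariant chain and matures other cathepsins. It stood at 7.11 on the Tg array against 7.87 on the non-Tg array, a ratio of -0.76, or 1.69-fold lower in Tg. In size this is 2.52 times the SD of a probe set, close to the size for Ctss but with the opposite sign. Ifi30 encodes the thiol reductase GILT, which opens disulfide bonds of endocytosed proteins. It stood at 8.28 on the Tg array and 8.23 on the other. Its ratio of 0.05 was 0.176 of the SD and turned to -0.0025 after quantile normalization, so it had no settled direction.

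None of the 10 proteases was 2-fold apart, with 0 higher and 0 lower in Tg. Among all 11422 genes past the filter, 0.797% were 2-fold higher and 0.376% were 2-fold lower, and read against this background 0 of 9 is not a result about the proteases. At 1.5-fold, Ctss was higher and Lgmn lower, 1 of the 9 in each direction. The background at 1.5-fold was 4.74% higher and 3.13% lower. A ratio at least as high as that of Ctss was found in 232 of the 11422 genes (2.03%), and one at least as low as that of Lgmn in 144 (1.26%). For Ctsb the share at least as high was 5.42%, for Ctsc 7.89% and for Ctsl 31.6%. The 2 brightest proteases, the cortical Ctsl and Prss16, thus lay in the middle of the distribution. Over the 10, the ratio was above 0 in 8 and below 0 in 2, with a median of 0.12, beside 0.01 over genes past the filter. The cortical markers leaned the same way, with 14 of 15 above 0 and a median of 0.10, so this lean was not particular to the proteases.

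**Figure D2:**
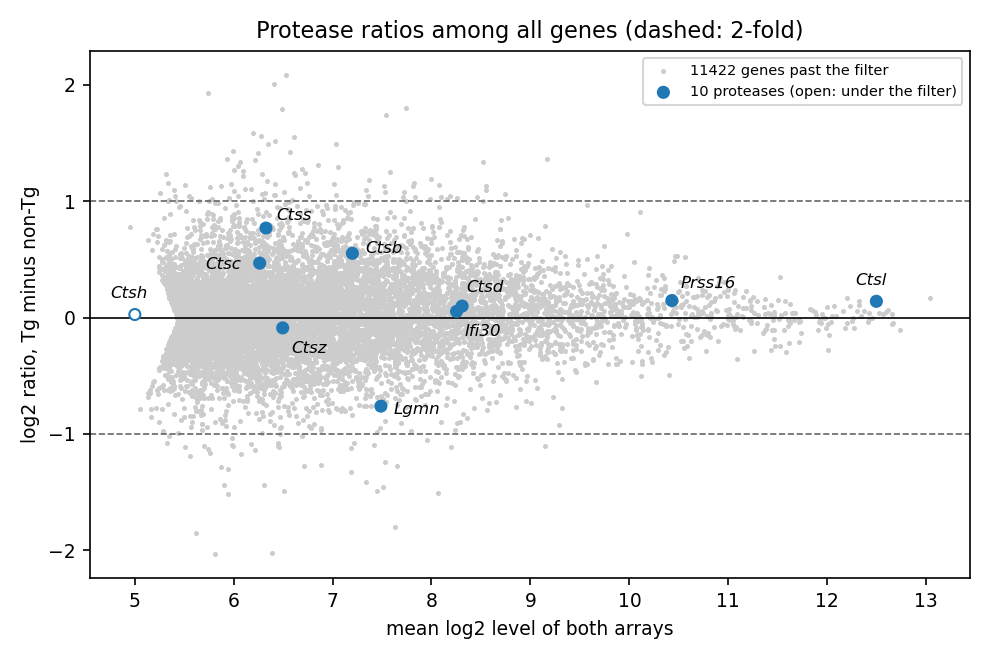
Log2 ratio (Tg minus non-Tg, y axis) against mean log2 level of both arrays (x axis) for all genes past the filter (grey) and the 10 proteases (blue, open for Ctsh). All 10 lie inside the dashed 2-fold lines, with Ctss at 0.77 and Lgmn at -0.76 at the edges and Ctsl and Prss16 near 0.15 at the bright end.

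The order of the proteases by probe set signal was Ctsl, Prss16, Ctsd, Ifi30, Lgmn, Ctsb, Ctsz, Ctss, Ctsc and Ctsh on the mean of both arrays. Probe sets differ in affinity, so this orders signals and not numbers of transcripts. The rank within the set was the same on both arrays for 6 of the 10, namely Ctsl, Prss16, Ctsd, Ifi30, Ctsc and Ctsh. Ctsl exceeded Prss16 by 2.06 in Tg and 2.07 in non-Tg, and Prss16 exceeded Ctsd by 2.14 and 2.10. Both gaps are wide against 0.427, the SD by which the gap between 2 probe sets of 1 gene differed from array to array. Ctsd and Ifi30 were 0.08 apart in Tg and 0.03 in non-Tg and could not be ordered. Ifi30 exceeded Lgmn by 1.17 in Tg and 0.36 in non-Tg, and Ctsb exceeded Ctsz by 1.02 and 0.38. Their non-Tg gaps were under 0.427, so these steps were not settled either.

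In the middle of the order, 3 pairs of neighbours stood in opposite order on the 2 arrays. Each had a gap under 0.427 on at least 1 array, so none of these pairs could be ordered. Lgmn was 0.95 above Ctsb on the non-Tg array and 0.37 below it on the Tg array. Ctsz was 0.60 above Ctss in non-Tg and 0.26 below it in Tg. Ctsc was 0.09 above Ctss in non-Tg and 0.21 below it in Tg. Set against each other within an array, Ctss was 1.93 below Lgmn in non-Tg and 0.40 below it in Tg, a difference of 1.53. That pair was picked because it holds the highest and the lowest ratio, so its difference is a description.

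Start-site sequences are shown for Ctss and Lgmn, which had the highest and the lowest ratio. RefSeq windows (GRCm38.p6, the C57BL/6J reference and not NOD) were matched for 7 of the 10 genes (all but Ctsb, Ctsh and Prss16), in 8 windows of 300 bases, with Lgmn having 2 start sites. The 250 bases before the start site are printed 5′ to 3′ for Ctss, for both starts of Lgmn, and for Ctsd, which held 2 of the E-boxes. Capitals mark CACGTG, the E-box bound by TFEB and its relatives, which regulate lysosomal genes, and a pair of GAAA with any 2 bases between them, a repeat bound by interferon regulatory factors. Ctss lies at chr3:95526536-95526785 on the plus strand. The Lgmn windows lie at chr12:102439729-102439978 and chr12:102439093-102439342, and the Ctsd window at chr7:142387828-142388077, on the minus strand.
Ctss: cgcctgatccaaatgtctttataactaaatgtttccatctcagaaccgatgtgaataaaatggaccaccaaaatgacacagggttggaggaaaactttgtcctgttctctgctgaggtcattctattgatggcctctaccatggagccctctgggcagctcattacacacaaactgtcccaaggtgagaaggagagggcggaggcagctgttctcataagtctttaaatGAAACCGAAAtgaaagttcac
Lgmn, upstream start: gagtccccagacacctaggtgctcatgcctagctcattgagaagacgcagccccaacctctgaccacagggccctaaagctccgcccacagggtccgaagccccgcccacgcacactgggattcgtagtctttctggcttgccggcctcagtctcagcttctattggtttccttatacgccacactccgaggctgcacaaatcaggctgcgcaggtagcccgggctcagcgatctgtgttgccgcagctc
Lgmn, downstream start: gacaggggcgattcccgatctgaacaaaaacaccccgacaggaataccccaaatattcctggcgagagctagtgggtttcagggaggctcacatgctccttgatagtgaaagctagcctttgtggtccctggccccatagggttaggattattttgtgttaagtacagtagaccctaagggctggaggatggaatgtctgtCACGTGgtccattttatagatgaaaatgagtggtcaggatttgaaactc
Ctsd: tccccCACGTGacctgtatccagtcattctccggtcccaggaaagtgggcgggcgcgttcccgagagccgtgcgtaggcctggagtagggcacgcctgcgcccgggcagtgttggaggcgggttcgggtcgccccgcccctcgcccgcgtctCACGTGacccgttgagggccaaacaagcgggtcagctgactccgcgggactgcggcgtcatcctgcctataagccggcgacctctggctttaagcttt

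Among the 9 motifs searched on both strands, CACGTG was found in windows of 4 of the 7 genes, Ctsd, Ctsl, Ifi30 and Lgmn, against 7.15% of all 32851 windows. The longer TCACGTGA, which contains it, was in Ctsd and Ifi30 and in 0.974% of windows. In Ctsd the E-boxes began 245 and 98 bases before the start, and in the downstream Lgmn window 49 bases before it. The genes with CACGTG had ratios from -0.76 (Lgmn) to 0.14 (Ctsl), so they did not share a direction. The Ctsl window ends in letters that resemble a splice acceptor, and whether it is a promoter is uncertain. Without Ctsl, 3 of 6 genes held CACGTG, with ratios from -0.76 to 0.10 (Ctsd). The GAAA pair was found in Ctss alone, beginning 21 bases before its start, and in 3.44% of windows. TTCNNNGAA, the repeat bound by STAT factors, was found in Ctsc (8.30% of windows).

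The other motifs were CCAAT in Ctsz and Lgmn (37.4% of windows), TATAAA in Ctss and Lgmn (13.6%), GGGCGG in 6 of the 7 genes (35.7%), and GAGGAA in Ctsc, Ctss and Ifi30 (28.3%). The NF-kB consensus had no match in these windows (3.39% of all). A match describes letters in a window, and whether a factor binds there was not measured.

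Genes known from other cells bear on Ctss, Ctsb and Lgmn, which macrophages and dendritic cells express too. Of 18 markers of those cells, 6 passed the filter. Their summed signal on the linear scale, background included, was 1010 in Tg and 1084 in non-Tg. Without Ptprc and Tyrobp, left out after the values were seen, it was 588 in Tg and 569.5 in non-Tg. The direction of the full sum, which includes markers under the filter, thus rests on those 2 genes. Counted by gene, again with markers under the filter, 11 of the 18 ratios were above 0 and 4 below, with a median of 0.03. Of the 6 past the filter, Tyrobp had a ratio of -0.58, Mpeg1 -0.42, C1qa -0.31 and Ptprc, which thymocytes share, -0.22. Flt3 had 0.38 and Cx3cr1 0.02. Lyz2, Adgre1 and Csf1r lay under the filter on both arrays, and the integrin genes Itgam and Itgax fell short of even the floor of 4.80. Medullary epithelial markers, whose cells use Ctss, had 11 of 15 members past the filter and a summed signal of 3208 in Tg and 2920 in non-Tg. Without Krt5, also left out after the values were seen, the sum was 1506 in Tg and 1580 in non-Tg, so its direction rests on that gene. Their ratios ran from -0.39 (Tnfrsf11a) to 0.72 (Cd86), with 5 above 0 and 10 below, and the bright Krt5 and Trp63 had 0.34 and -0.12. The part of these cells in the protease ratios was not tested.

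B cells also use Ctss, and 2 of 7 B cell markers passed the filter, Ebf1 (ratio -0.36) and Pax5 (-0.04). The summed signal of all 7, mostly markers under the filter, was 236 in Tg and 256 in non-Tg. Thymocyte markers summed to 5556 and 6029, with ratios from -0.49 (Cd3d) to 0.34 (Zap70). Of these ratios, 4 were above 0 and 10 below, with a median of -0.05. Fibroblast markers had 7 of 10 and endothelial markers 6 of 8 past the filter, with sums of 1927 and 1970, and of 701 and 708. The bright members were Fn1 (0.31) and Thy1, which thymocytes also express (-0.68), in the first list, and Cdh5 (-0.16) and Pecam1 (0.48) in the second, where Egfl7 was lowest at -0.49. Postn had the highest fibroblast ratio, 0.51. Counted by gene, 6 of the 10 fibroblast ratios were above 0 and 4 below, with a median of 0.04, although the sum was lower in Tg. Thy1 is bright and lower in Tg, so it weighs on that sum, and the sum without Thy1 was not taken.

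The proteases act on class II molecules. Of 9 measured genes for class II chains and chaperones, 8 passed the filter, 0 were 2-fold apart, and the median ratio was 0.03. Cd74, the invariant chain that Ctsl and Ctss cleave, stood at 10.20 with the transgene and 10.19 without, and H2-Ab1 had 10.28 and 10.16. H2-Eb2 had the highest ratio, 0.89, at the dim levels of 6.23 and 5.34, and was the 1 gene of the list past 1.5-fold. H2-DMa, a subunit of the peptide exchange catalyst, had the lowest, -0.11. H2-Ea was under the filter on both arrays (4.85 and 4.82); NOD mice are known to lack a functional copy of this gene.

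The other cathepsins were mostly dim. Of 14 measured, 5 passed the filter, 0 were 2-fold apart, and 7 were below the floor in Tg and non-Tg alike, so their median of 0 reflects ties. Ctso had the highest ratio, 0.34 (7.13 and 6.78), and Ctsw, a cathepsin of killer lymphocytes, the lowest, -0.51. Ctsa, lysosomal protective protein, stood at 7.00 with the transgene and 7.18 without. Of 9 measured inhibitors, 3 passed the filter. Cstb, stefin B, was bright and alike at 11.60 and 11.56. Cst3, the secreted inhibitor cystatin C, was lower in Tg at 9.08 against 9.47, a ratio of -0.39.

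Lysosomal sorting and membrane genes mostly lay above 0. Of 18 measured, 16 had ratios above 0 and 1 below, with a median of 0.18, and the count stayed at 16 after quantile normalization and after centring; 0 were 2-fold apart. Of the 18, 15 passed the filter, and the count of 16 was not limited to those. Among all 19938 genes, 7780 were above 0 (39.0%) and 8420 below, with 3738 at 0. Among genes past the filter, 5778 of 11422 were above 0 (50.6%) and 5531 below. Npc2, a cholesterol-binding protein of the lysosome, had the highest ratio, 0.64, and Gga1, a sorting adaptor, the lowest, -0.02. Lamp2 (11.47 and 11.44) and Cd63 (11.14 and 11.05), both membrane proteins of the compartment, were the brightest.

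The proton pump that acidifies the compartment, which these proteases need to work, was measured through 17 genes, of which 16 passed the filter. Their ratios were below 0 in 11 and above 0 in 5, with a median of -0.07. The subunit gene Atp6v0b was called, at 6.62 in Tg and 7.74 in non-Tg (ratio -1.12, 2.18-fold lower). The accessory subunit gene Atp6ap1 had the highest ratio, 0.49. Atp6v1g1 and Atp6v1d, the brightest members, had 0.06 and -0.12.

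Among 18 other lysosomal hydrolases, 16 passed the filter and 1 was called. Hexa, the alpha subunit of beta-hexosaminidase, stood at 5.90 with the transgene and 7.02 without, a ratio of -1.12 (2.17-fold lower). Glb1, beta-galactosidase, had the highest ratio, 0.48. Psap and Lipa, the brightest, had 0.02 and 0.21, and the median was 0.06. Other peptidases had 8 of 11 past the filter and 0 called, with a median of 0.13. Pepd, which cleaves dipeptides with proline, had the highest ratio, 0.71, and Scpep1 the lowest, -0.39. Pepd and Enpep, an aminopeptidase of cTECs with a ratio of 0.48, were the brightest.

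Of 15 measured regulators of class II and lysosomal genes, 13 passed the filter with 0 called and a median of 0.06. Ciita, the coactivator required for class II transcription, had the highest ratio, 0.38 (6.42 and 6.04), and Nfyb, a subunit of the CCAAT-binding factor, the lowest, -0.44. Tfeb was under the filter on both arrays (5.13 and 5.26). Irf1 and Stat3, the brightest, had 0.14 and 0.27. Over all 8 lists, 111 of 127 distinct genes were measured and 84 passed the filter, with 0 called higher and 2 called lower, Atp6v0b and Hexa. The background among all genes past the filter was 0.797% higher and 0.376% lower. Each of these 2 has 1 probe set.

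**Figure D3:**
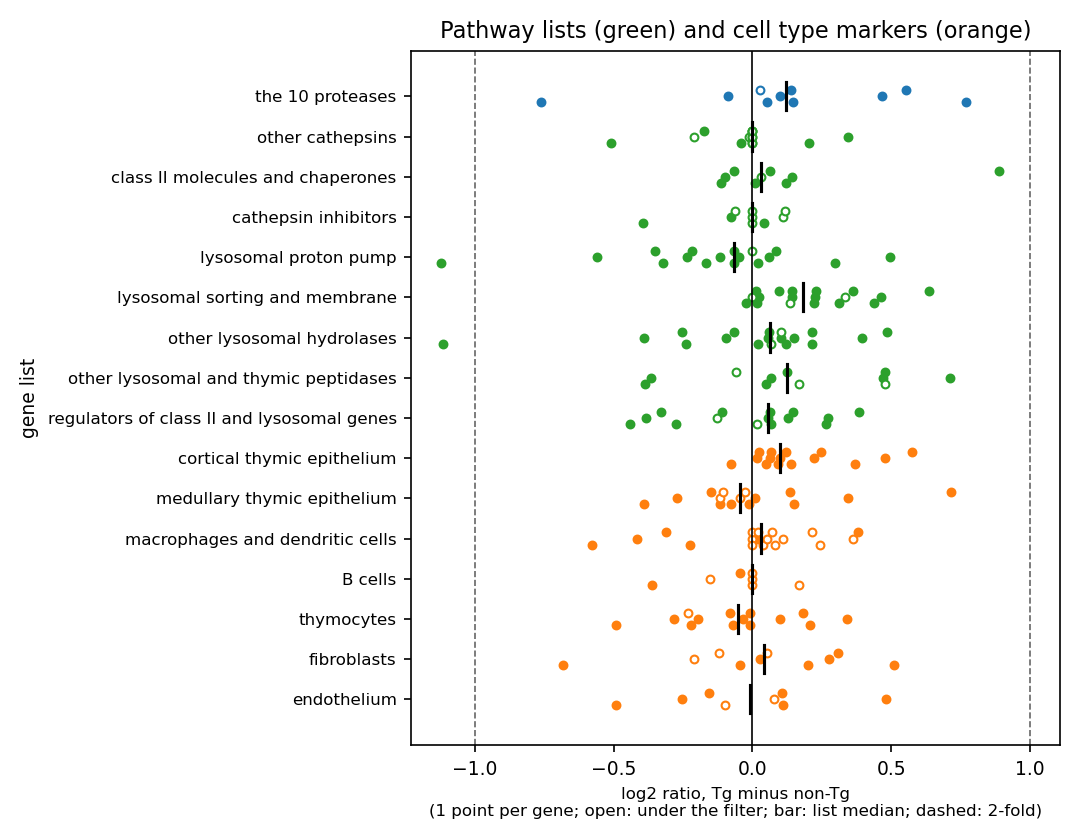
Log2 ratio (Tg minus non-Tg, x axis) of every measured gene of the proteases (blue), the 8 pathway lists (green) and the 7 marker lists (orange); open points lie under the filter, bars are list medians and dashed lines mark 2-fold. The points beyond a dashed line are Atp6v0b and Hexa, and lysosomal sorting and membrane genes lie mostly right of 0.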

How the data were processed

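Total RNA (400 pg) was amplified to cDNA, of which 5.5 µg was fragmented and biotin-labelled, per the labels' protocols. The authors deposited 1 log2 value per probe set and array; the log2 scale was inferred from the range, 4.22 to 13.7, and neither the software nor the normalization or build is given in the sources at hand. No detection calls or scan dates were used, and the number of arrays limits the precision.

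Gene names came from GEO's platform annotation, for 21789 of 28856 probe sets with 1 symbol (1621 had several, 5446 none here). Per gene, the probe set with the highest mean level was used. Values under the 25th percentile of all values (4.80) were raised to it before ratios were taken. Alternatives changed scaling, floor, filter, probe set choice and fold.

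The members and gene lists were chosen with earlier results of these data known. Of each pathway list, the text names called genes, the highest and lowest ratio past the filter and the 2 brightest genes; of each marker list the last 4. Genes named outside that rule (Lyz2, Adgre1, Csf1r, Itgam, Itgax, Mpeg1, C1qa, Cx3cr1, H2-Ea, Tfeb) were chosen after their values were seen, as were the motifs. Python 3.11.15, numpy 2.4.6, pandas 2.3.3 and matplotlib 3.10.9 were used. Calling was run on simulated data whose planted changes were larger than 2-fold, with noise under the SD of 0.302. No gene as dim as Ctsh was given a change. Calls near 2-fold or 1.5-fold, or at low level, were thus not checked.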

Additional observations from a re-analysis of the deposited data

How the results depend on the processing

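Of 29 counts recomputed under alternatives, 26 stayed within 1.5 times the reported count. Of 132 ratios and medians, 129 moved by less than the SD of a probe set (divided by the square root of the number of genes for a median). The number of proteases 2-fold apart was 0 under every scaling, floor, filter and probe set alternative run, and it was 2 (Ctss and Lgmn) at 1.5-fold, where all genes gave 541 higher and 357 lower. The log2 ratio of a single protease moved by at most 0.06. It kept its sign in 58 of 60 values. The exceptions were Ifi30 after quantile normalization (-0.0025) and Ctsh, which became 0 with the floor at the 50th percentile. Each protease has 1 probe set with a single symbol and lies above the floor of 4.80. Removing the floor or changing the probe set choice therefore could not move its ratio. Those unmoved values are counted in the 58 and the 129, so both counts overstate how much was tested. The median over the proteases ranged from 0.08 to 0.14. With the filter at the 75th percentile, fewer genes remained and 3 list medians moved, to -0.065 for other lysosomal hydrolases, 0.47 for other peptidases and -0.11 for the regulators. Scaling shifted the median of genes past the filter by -0.0088 (quantile) and 0.02 (centring). With 1 array per genotype no array could be left out, and near the lower bound of the values differences are compressed. No paired analysis was possible because each genotype has 1 array. The summed signal of the macrophage and dendritic cell markers, a log2 ratio of -0.10, became 0.05 without Ptprc and Tyrobp, and that of medullary markers, 0.14, became -0.07 without Krt5; these choices were made after seeing the data.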
